A study of Bos taurus with 6 samples.

Results

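The genes described here build and operate the mitotic apparatus of bovine granulosa cells (GC), the somatic cells that line the ovarian follicle. They were taken from a list of 58 symbols of kinetochore, checkpoint, motor, condensin and cytokinesis genes. A member was any row of the deposited table whose gene symbol equals a symbol of this list. Of the 58 symbols 57 have a row, while TTK has none and was not analysed here. These 57 genes are measured by 60 of 26773 transcript clusters, the units in which the array reports genes. Each of 6 cultures gave RNA for 1 oligonucleotide array, and 3 of them had been plated at normal and 3 at high density. Both kinds of culture held primary cells pooled from the ovaries of abattoir cows of undefined cycle stage, thawed from frozen stocks, plated on collagen and kept for 9 days in serum-free α-MEM. The medium held FSH, IGF-1, insulin and androstenedione in all cultures, and the densities differed by design only in the number of cells plated per well. The study's methods speak of 6 GC preparations, each a cell pool from many cows. Whether same-numbered cultures of both densities shared a pool is not given in the sources used here, and p-values measure the spread between these cultures.

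Before a cell divides, condensin folds each replicated chromosome into a compact rod, and a kinetochore is assembled on its centromere to hold the spindle microtubules. The spindle assembly checkpoint delays anaphase until all kinetochores are attached, kinesin motors and microtubule-binding proteins shape the spindle, and the central spindle then directs the contractile ring that separates the daughter cells. Many of these genes are transcribed mainly in the G2 and M phases, so that their RNA is abundant in dividing tissue. In the ovary, GC divide in the growing follicle and leave the cell cycle when they luteinize after the LH surge.

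Values are log2 signals, which the authors obtained with the RMA procedure (background correction, normalization between arrays and a summary per transcript cluster). Signals of different genes are not compared, since each depends on its own probes. A difference is the mean log2 signal at high density less that at normal density (log2 fold change), with its standard error (SE) from limma. A gene is called when its adjusted p-value is below 0.05 (limma, Benjamini-Hochberg over all transcript clusters) and its fold change is above 1.5, the thresholds of the study's methods. The 95th percentile of the 82 reporter control rows, a log2 signal of 4.62, served as the background level, below which the size of a fall may be limited. This level is above the median signal of every array (4.34 to 4.43), and whether it is a floor was not tested.

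High density replicate 2 stood apart from the rest of its group, with Euclidean distances over all transcript clusters of 47.5 and 45.0 from replicates 1 and 3, which were 35.3 apart. The normal density cultures lay between 31.2 and 32.4 from each other. Of 8 granulosa markers, all were above the background level in at least 1 culture, and FSHR, INHA, CYP19A1, FOXL2 and FST were called lower at high density while HSD17B1 was called higher. All 6 leukocyte markers, all 3 red blood cell markers and 4 of 5 endothelial markers, PECAM1 and CDH5 among them, were at or below the background level in every culture. Summed linear signals of the leukocyte markers ranged from 71.1 to 75.8 at normal and from 68.9 to 80.8 at high density. Those of all 5 endothelial markers ranged from 74.8 to 78.2 and from 77.7 to 87.5. The remaining endothelial marker, VWF, was above the background level in every culture. It was higher in all high density cultures but not called (log2 fold change 0.31, limma's adjusted p = 0.0572). The red blood cell markers were HBB, ALAS2 and AHSP. HBA, which heads the study's list of raised genes, was not among them. Of the theca markers CYP17A1 was below the background level, whereas INSL3 was called higher, with summed signals of 149 to 162 at normal and 483 to 592 at high density. The 4 smooth muscle markers summed to 265 to 303 and 285 to 331, and MYH11 was called lower. Whether INSL3-expressing cells had a part in the values of the mitotic genes was not tested.

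All 57 mitotic genes had lower mean signals at high density, and 47 of them were called lower, against 3.51% of all transcript clusters. The members had been chosen with earlier results of these data known, and these shares were not tested against each other. No member was called higher, against 3.97% of all transcript clusters (limma, with 0 members higher at an unadjusted p below 0.05 and 0 by the methods' analysis of variance). The median log2 fold change was −0.95 over the members and 0.02 over all transcript clusters. Expressed as a ratio, the median member signal was 1.94-fold lower at high density. The adjusted p-value passed the threshold, at any fold change, for 54 members, against 10.4% of all transcript clusters lower at high density. The groups did not overlap in 56 of the 57 genes, with all high density signals below all normal density signals, against 19.5% of all transcript clusters. Among the 100 transcript clusters with the largest falls in the table, 18 measured members. Without high density replicate 2, 49 members were called lower, against 4.76% of all transcript clusters, and the median log2 fold change was −1.07. In cultures such as these, fewer dividing cells and less of these RNAs per cell cannot be told apart.

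**Figure D1:**
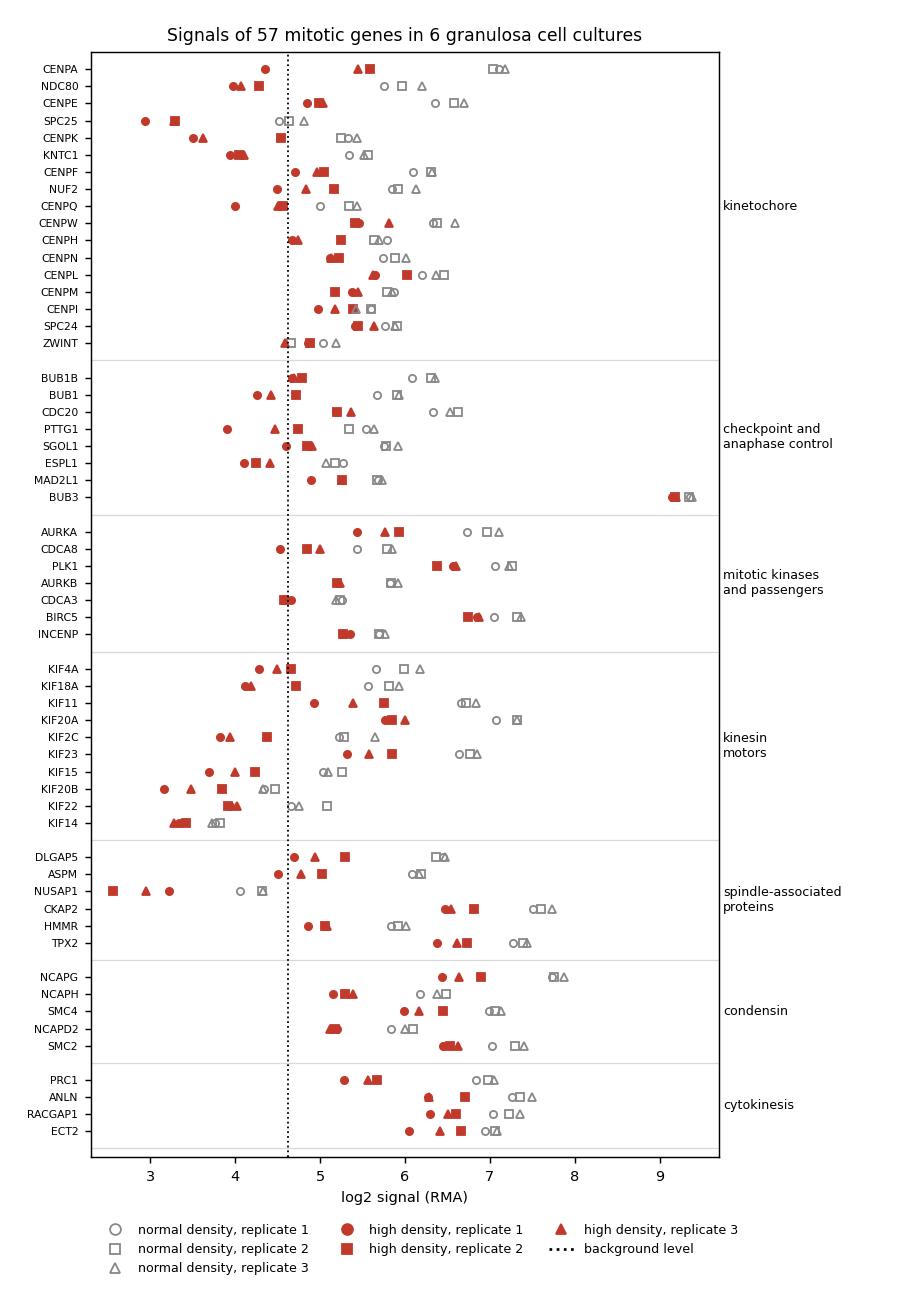
Log2 signals (RMA) of the 57 genes in each culture, one row per gene, sorted by log2 fold change within each role; open grey symbols are the normal density cultures, filled red symbols the high density cultures, and the dotted line is the background level of 4.62. The red symbols lie left of the grey ones in every row except that of ZWINT, and 17 genes have a high density mean at or below the dotted line.

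The fall was seen in every high density culture. The mean log2 signal over the 57 genes was 6.04, 6.15 and 6.22 in normal density replicates 1 to 3 and 4.97, 5.27 and 5.16 in high density replicates 1 to 3. High density replicate 1 had the lowest signal of its group for 44 members, and replicate 2 the highest for 35, which are 77.2% and 61.4% of the members. Over all transcript clusters these shares were 29.7% and 34.7%. The culture that stood apart thus had the smallest mean fall of the 3. At normal density replicate 1 was likewise the lowest, for 43 members or 75.4%, against 34.2% of all transcript clusters. Replicate 3 was the highest there, for 39 members or 68.4%, against 34.9% of all transcript clusters. The spread between cultures was also larger at high density, with a median SD of 0.19 against 0.12 at normal density, and 41 members had the larger SD there. Over all transcript clusters the median SDs were 0.13 and 0.08.

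**Figure D2:**
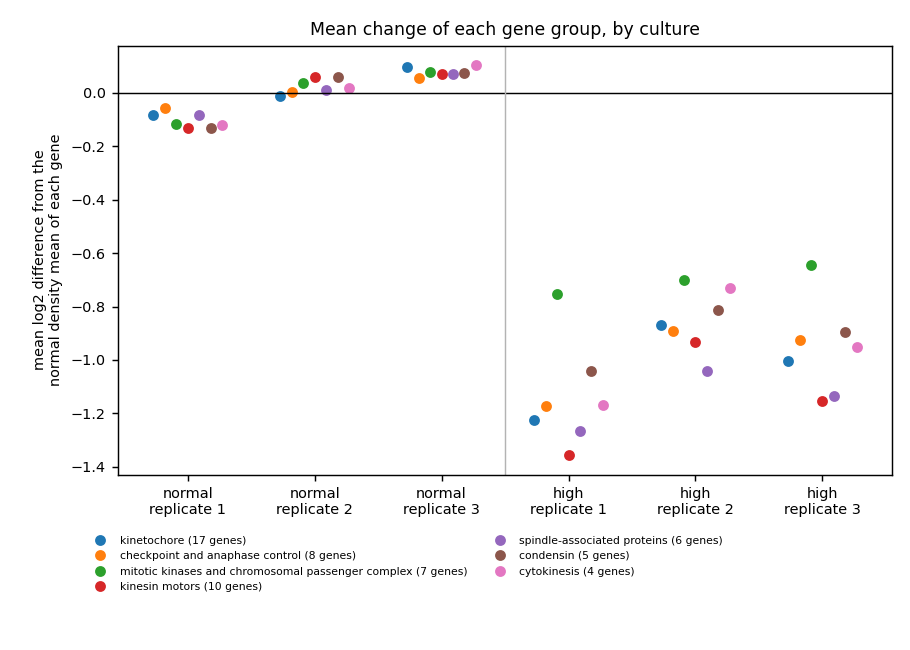
Mean log2 difference of the genes of each role from their own normal density mean (vertical axis), in each of the 6 cultures (horizontal axis), one point per role. All points of the high density cultures lie between −1.36 and −0.64, those of the normal density cultures between −0.13 and 0.10, and the mitotic kinases and passengers have the smallest mean fall in each high density culture.

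Kinetochore genes held the 3 largest falls among the members. Of 17 genes 12 were called lower, with a median log2 fold change of −0.91, and 8 by the methods' analysis of variance, which did not call CENPA, CENPH, CENPK and CENPQ. CENPA (transcript cluster 12707854), the histone H3 variant that marks the centromere, had log2 signals of 7.11, 7.04 and 7.18 in the normal density cultures and 4.35, 5.59 and 5.44 in the high density cultures. Its log2 fold change of −1.98 (SE 0.30, limma's adjusted p = 0.00365) was the largest of the 57. The high density cultures did not overlap the normal ones but differed among themselves by more than 1.2 on the log2 scale, with replicate 1 lowest, and by the methods' analysis of variance CENPA was not called (adjusted p = 0.0531).

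NDC80 (12808472), whose complex binds the microtubule end, gave 5.76, 5.97 and 6.20 at normal and 3.97, 4.28 and 4.07 at high density. This was a fall of 1.87 on the log2 scale (SE 0.13, limma's adjusted p = 0.000138), to a level below background in all high density cultures. CENPE (12869954), a kinetochore-bound kinesin that moves chromosomes to the spindle equator, gave 6.35, 6.58 and 6.70 (normal) and 4.85, 4.98 and 5.03 (high density), with the groups well apart. It changed by −1.59 (SE 0.11, limma's adjusted p = 0.000112). SPC25 (12775328), a partner of NDC80, had signals of 4.51, 4.63 and 4.82 (normal) and 2.94, 3.29 and 3.28 (high density). Its log2 fold change of −1.48 (SE 0.12, limma's adjusted p = 0.000275) started near the background level, which may limit its size.

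CENPK and KNTC1 were next, with log2 fold changes of −1.45 (SE 0.25) and −1.45 (SE 0.09). CENPK belongs to the constitutive centromere network, and KNTC1 recruits checkpoint proteins to unattached kinetochores. CENPF, a large protein of the outer kinetochore, and NUF2, the partner of NDC80 in microtubule binding, changed by −1.34 and −1.14. The falls of CENPQ, CENPW, CENPH and CENPN, all of the constitutive network, lay between −0.91 and −0.73. In the analysis of variance the adjusted p was 0.0731 for CENPK, 0.0849 for CENPQ and 0.0734 for CENPH. CENPW has a second transcript cluster (12901592) with signals at or below the background level in both group means and a log2 fold change of −1.26 (SE 0.24, limma's adjusted p = 0.0102).

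The kinetochore genes that were not called were CENPL, CENPM, CENPI, SPC24 and ZWINT. CENPL, CENPM and SPC24 passed the adjusted p-value but not the fold change, with log2 fold changes of −0.57, −0.50 and −0.35. CENPL was called when normal density replicate 1 (−0.64) or high density replicate 2 (−0.70) was left out. CENPI had −0.36 (SE 0.12, limma's adjusted p = 0.0729) without overlap of the groups. ZWINT (12819682), which links the checkpoint to the outer kinetochore, had the smallest difference of all members. Its signals were 5.03, 4.66 and 5.19 at normal and 4.85, 4.89 and 4.59 at high density, and this was the only member whose groups overlapped (log2 fold change −0.19, SE 0.15, limma's adjusted p = 0.439).

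**Figure D3:**
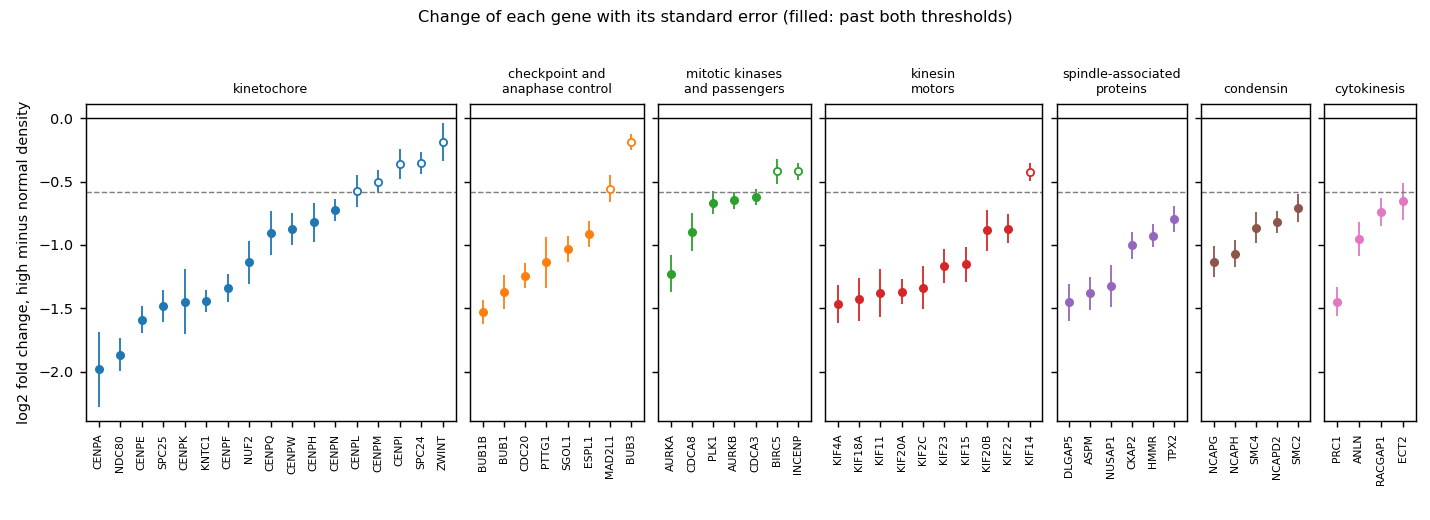
Log2 fold change (vertical axis, high less normal density) of each of the 57 genes (points) with its standard error (bars), grouped by role; filled points were called, open points were not, and the dashed line is a fold change of 1.5. The points run from −1.98 for CENPA to −0.19 for ZWINT and BUB3, and no gene lies above 0.

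Among the checkpoint and anaphase genes 6 of 8 were called lower, with a median log2 fold change of −1.09. BUB1B (12690910), the checkpoint protein that holds back the anaphase-promoting complex (APC/C), had signals of 6.08, 6.30 and 6.36 at normal and 4.67, 4.79 and 4.70 at high density. The log2 fold change was −1.53 (SE 0.09, limma's adjusted p = 7.46e-05), and the high density cultures differed little from each other. BUB1 (12700024), the kinase that builds the checkpoint at the kinetochore, gave 5.67, 5.91 and 5.93 (normal) and 4.25, 4.72 and 4.42 (high density). This corresponds to a log2 fold change of −1.37 (SE 0.13, limma's adjusted p = 0.000564). For CDC20 (12844886), the activator of the APC/C that the checkpoint inhibits, the signals were 6.33, 6.62 and 6.53 (normal) and 5.19, 5.20 and 5.36 (high density), again without overlap. It changed by −1.24 (SE 0.10, limma's adjusted p = 0.000214).

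PTTG1 (12688871), encoding securin, the inhibitor of separase, had signals of 5.54, 5.34 and 5.64 (normal) and 3.90, 4.73 and 4.46 (high density), with replicate 1 lowest at high density. It fell by 1.14 on the log2 scale (SE 0.20, limma's adjusted p = 0.00786), and by the methods' analysis of variance it was not called (adjusted p = 0.0726). The symbol is carried by a further pair of transcript clusters, 12878157 and 12887279, with all signals far below the background level and log2 fold changes of −0.04 and 0.10, neither of them called. The cluster used, 12688871, was not matched to PTTG1 in RefSeq. The assignment of that cluster and of the further pair to the gene is uncertain. ESPL1, which is separase itself, the protease that opens the cohesin ring, changed by −0.91 (SE 0.10), and SGOL1, shugoshin, which protects centromeric cohesin until anaphase, by −1.03 (SE 0.10). On the transcript clusters used here, the RNAs of securin, separase and shugoshin thus all fell.

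BUB3 and MAD2L1 were not called. BUB3 (12820733), the adaptor that brings BUB1 and BUB1B to the kinetochore, had signals of 9.36, 9.35 and 9.39 at normal and 9.15, 9.19 and 9.20 at high density. The groups did not overlap, but the difference was small, with a log2 fold change of −0.19 (SE 0.06, limma's adjusted p = 0.0819), whereas BUB1 and BUB1B fell. MAD2L1, which forms the soluble checkpoint complex, had a log2 fold change of −0.55 (SE 0.11, limma's adjusted p = 0.012), just under the fold change threshold, and it was called without high density replicate 2 (−0.62) or replicate 3 (−0.61).

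In the group of mitotic kinases and the chromosomal passenger complex 5 of 7 genes were called lower, and the median log2 fold change of −0.65 was the smallest of all roles. AURKA (12714015), the kinase of the spindle poles, had signals of 6.73, 6.97 and 7.11 (normal) and 5.44, 5.93 and 5.76 (high density). It changed by −1.23 (SE 0.15, limma's adjusted p = 0.00142), the largest fall in this group. PLK1 (12813690), the polo kinase that acts at centrosomes, kinetochores and the midbody, gave 7.07, 7.26 and 7.22 (normal) and 6.56, 6.38 and 6.60 (high density), a smaller step without overlap. Its change was −0.67 on the log2 scale (SE 0.09, limma's adjusted p = 0.00239).

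The passenger complex corrects faulty microtubule attachments and later moves to the central spindle. CDCA8 (12843787), encoding its subunit borealin, gave 5.43, 5.78 and 5.84 at normal and 4.52, 4.84 and 5.0 at high density, which is a change of −0.90 on the log2 scale (SE 0.15, limma's adjusted p = 0.00665). By the methods' analysis of variance it was not called (adjusted p = 0.0618). AURKB (12767740), the catalytic subunit, had signals of 5.83, 5.83 and 5.92 (normal) and 5.20, 5.20 and 5.24 (high density), which barely varied within a density. The change of −0.65 on the log2 scale (SE 0.07, limma's adjusted p = 0.000693) was not far past the fold change threshold.

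BIRC5, encoding survivin, and INCENP, the scaffold of the complex, passed the adjusted p-value but not the fold change. BIRC5 had a log2 fold change of −0.42 (SE 0.10, limma's adjusted p = 0.0259). INCENP (12830008) had the smallest difference of the group, with signals of 5.69, 5.70 and 5.76 (normal) and 5.36, 5.27 and 5.28 (high density) and a log2 fold change of −0.42 (SE 0.07, limma's adjusted p = 0.00501). CDCA3, part of a ubiquitin ligase that allows entry into mitosis, was called with −0.62 (SE 0.07).

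Kinesin motors had the largest median log2 fold change of the roles, −1.25, and 9 of 10 were called lower. In 7 of the 10 the high density mean did not exceed the background level, and the size of their differences may be limited by it. KIF4A (12909607), a chromosome-bound motor that also shortens the central spindle, gave 5.66, 5.99 and 6.17 at normal and 4.28, 4.66 and 4.50 at high density. It fell by 1.46 on the log2 scale (SE 0.15, limma's adjusted p = 0.000718). KIF18A (12732959), which dampens chromosome movements at the spindle equator, gave 5.57, 5.81 and 5.92 (normal) and 4.12, 4.71 and 4.19 (high density), with replicate 2 highest of the high density cultures. It changed by −1.43 (SE 0.17, limma's adjusted p = 0.0013).

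KIF11 (12819342), the motor that pushes the spindle poles apart, had signals of 6.66, 6.71 and 6.83 (normal) and 4.93, 5.76 and 5.38 (high density), the high density values spread over more than 0.8 but all above background. The log2 fold change was −1.38 (SE 0.19, limma's adjusted p = 0.00253). KIF20A (12880178), which carries the passenger complex to the central spindle, gave 7.07, 7.33 and 7.32 (normal) and 5.76, 5.85 and 6.0 (high density), with the high density cultures close together. It changed by −1.37 (SE 0.10, limma's adjusted p = 0.000172).

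KIF2C, a microtubule depolymerase at the centromere, changed by −1.34, KIF23, a central spindle motor, by −1.17, and KIF15, which assists KIF11, by −1.15. KIF20B, which acts in cytokinesis, and KIF22, a motor on chromosome arms, had log2 fold changes of −0.88 and −0.87. KIF14 (12740081), a motor of late cytokinesis, was the one motor not called. Its signals of 3.77, 3.82 and 3.73 (normal) and 3.34, 3.42 and 3.28 (high density) were all below the background level. The log2 fold change of −0.43 (SE 0.07, limma's adjusted p = 0.00611) may be limited by this level. The means of KIF20B at both densities were below that level as well.

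All 6 genes of spindle-associated proteins were called lower, with a median log2 fold change of −1.16. DLGAP5 (12694290), which stabilizes the microtubules that reach the kinetochores, had signals of 6.45, 6.37 and 6.47 (normal) and 4.70, 5.29 and 4.94 (high density). The groups were far apart, with a log2 fold change of −1.45 (SE 0.14, limma's adjusted p = 0.000571). ASPM (12740427), a protein of the spindle poles, gave 6.08, 6.19 and 6.17 at normal and 4.50, 5.02 and 4.78 at high density, with replicate 2 again highest among the latter. It changed by −1.38 (SE 0.13, limma's adjusted p = 0.000463).

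NUSAP1 (12692009), which bundles microtubules near chromosomes, had signals of 4.06, 4.32 and 4.33 (normal) and 3.22, 2.56 and 2.95 (high density), all below the background level. Unlike in most members, high density replicate 2 was the lowest here. The log2 fold change was −1.32 (SE 0.17, limma's adjusted p = 0.00165). CKAP2 (12711817), a microtubule-stabilizing protein, gave 7.51, 7.60 and 7.73 (normal) and 6.47, 6.81 and 6.55 (high density), with a log2 fold change of −1.0 (SE 0.11, limma's adjusted p = 0.000889). HMMR, a hyaluronan receptor that also acts at the spindle pole, changed by −0.93 (SE 0.09). The smallest fall of this role was that of TPX2 (12714352), the activator of AURKA, with signals of 7.28, 7.39 and 7.44 (normal) and 6.38, 6.73 and 6.61 (high density) and a log2 fold change of −0.79 (SE 0.10, limma's adjusted p = 0.00198).

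Each of the 5 condensin genes was called lower, and all stayed above the background level at both densities. The median log2 fold change was −0.86. NCAPG (12871525) and NCAPH (12698951) encode subunits that occur only in condensin I. NCAPG gave 7.73, 7.76 and 7.87 at normal and 6.44, 6.90 and 6.63 at high density, and NCAPH gave 6.17, 6.49 and 6.38 (normal) and 5.15, 5.29 and 5.38 (high density). These correspond to log2 fold changes of −1.13 (SE 0.12, limma's adjusted p = 0.000807) and −1.07 (SE 0.10, limma's adjusted p = 0.000568). NCAPD2 (12869291), the remaining subunit of condensin I, had signals of 5.84, 6.10 and 6.0 (normal) and 5.19, 5.17 and 5.12 (high density), very close to each other at high density, and changed by −0.82 (SE 0.09).

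SMC4 (12683595) and SMC2 (12891472) form the ATPase core that condensin I and condensin II share. SMC4 gave 6.99, 7.06 and 7.13 (normal) and 5.99, 6.45 and 6.17 (high density), a log2 fold change of −0.86 (SE 0.12, limma's adjusted p = 0.00274). SMC2 had the smallest fall of the group, from 7.02, 7.30 and 7.40 to 6.45, 6.54 and 6.62, with −0.70 (SE 0.11, limma's adjusted p = 0.00458).

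Cytokinesis genes were all called lower, 4 of 4, with a median log2 fold change of −0.85. PRC1 (12791280), which crosslinks the microtubules of the central spindle, stood out among them with signals of 6.84, 6.98 and 7.05 (normal) and 5.29, 5.67 and 5.56 (high density). The groups did not overlap, and the log2 fold change was −1.45 (SE 0.11, limma's adjusted p = 0.00022). ANLN (12854287), encoding anillin, the scaffold of the contractile ring, gave 7.26, 7.36 and 7.50 at normal and 6.27, 6.71 and 6.28 at high density. It changed by −0.95 (SE 0.13, limma's adjusted p = 0.00266).

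RACGAP1 (12859556), which forms centralspindlin with KIF23 and recruits ECT2, had signals of 7.04, 7.23 and 7.35 (normal) and 6.30, 6.60 and 6.50 (high density), a log2 fold change of −0.74 (SE 0.11, limma's adjusted p = 0.00409). ECT2 (12683782), the exchange factor that activates RhoA at the division plane, gave 6.95, 7.07 and 7.08 (normal) and 6.05, 6.66 and 6.42 (high density). Its log2 fold change was −0.66 (SE 0.15, limma's adjusted p = 0.0212). The call was lost by the methods' analysis of variance (adjusted p = 0.108) and when any single culture other than high density replicate 2 was left out, with log2 fold changes between −0.70 and −0.49. The other 46 called members remained called with any single culture left out.

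Besides these members, 133 related mitotic genes have a row. Their list was written from general knowledge, but with earlier results of these data known. Of these 38 were called lower and 0 higher (limma, with 10 higher at an unadjusted p below 0.05 and 0 called higher by the methods' analysis of variance). The shares over all transcript clusters were 3.51% called lower and 3.97% called higher. The median log2 fold change of the related genes was −0.26. The largest fall in each role was that of CASC5 (the kinetochore scaffold KNL1, −1.63), FBXO5 (an inhibitor of the APC/C, −1.14), PBK (a mitotic kinase, −1.34), KIF24 (a kinesin, −0.69), SPAG5 (a spindle protein, −1.32), TOP2A (topoisomerase II of mitotic chromosomes, −1.67), ARHGAP11A (a RhoA regulator, −2.04), ESCO2 (a cohesin acetyltransferase, −1.29) and MYBL2 (a transcription factor of mitotic genes, −0.76). MKI67, encoding the proliferation antigen Ki-67, changed by −1.57 (SE 0.10), to signals of 5.14, 5.45 and 5.42 from 6.85, 6.94 and 6.94.

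Arranged by complex, the members sat in complexes with unequal changes. These complexes were put together from textbook knowledge after the values were known, and differences between them were not tested. Over all transcript clusters 3.51% were called lower, and a count of 0 of 4 is near that share. In the outer kinetochore 3 of 4 genes of the NDC80 complex were called lower, with a median log2 fold change of −1.31, and 0 of 4 genes of the MIS12 complex, which anchors it, with a median of −0.32 (limma, with 2 of 4 lower at an unadjusted p below 0.05 and 0 called by the methods' analysis of variance). The constitutive centromere network had 9 of 14 genes called and a median of −0.68. By the methods' analysis of variance 4 of these 14 were called. CENPC1, which touches the centromeric nucleosome, had a log2 fold change of −0.11 (SE 0.10, limma's adjusted p = 0.507). HJURP, the chaperone that loads CENPA, fell, with a log2 fold change of −1.13 (SE 0.12, limma's adjusted p = 0.000796).

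Of the RZZ complex, which contains KNTC1, ZWILCH was called with −0.59. ZW10, with −0.31, passed the adjusted p-value (limma's adjusted p = 0.0184) but not the fold change. The condensin I subunits had a median of −1.07 with 3 of 3 called, and those of condensin II, which works in the nucleus before the envelope breaks down, a median of −0.43 with 1 of 3 called, NCAPG2 (−0.67). NCAPD3, with −0.43, passed the adjusted p-value (limma's adjusted p = 0.0112) but not the fold change. NCAPH2, with −0.10, passed neither (limma's adjusted p = 0.639).

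**Figure D4:**
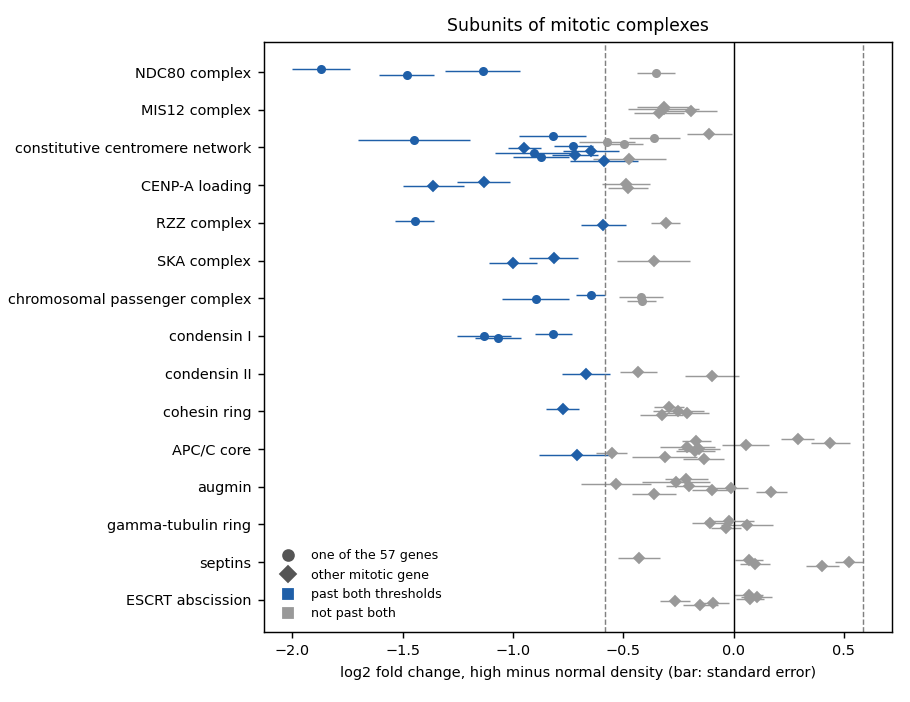
Log2 fold change, high less normal density (horizontal axis, bars are standard errors), of the subunits of 15 mitotic complexes; circles are members of the 57 genes and diamonds other mitotic genes, blue symbols were called, and dashed lines mark a fold change of 1.5. The NDC80 complex and condensin I reach −1.87 and −1.13, whereas subunits of the gamma-tubulin ring, the septins and the abscission machinery lie between −0.43 and 0.52.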

How the data were processed

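RNA of bovine GC was measured on the Affymetrix Bovine Gene ST array in 3 normal and 3 high density cultures. The deposited values are log2 signals per transcript cluster, which the authors made in Expression Console with the RMA procedure at default settings. The genome build is not given in the sources used here. The table was read whole, 26773 transcript clusters including 82 reporter control rows, without further normalization. The members and gene lists were chosen with earlier results of these data known. Symbols are those of the table. The mRNA accessions of 41 members are listed in RefSeq (ARS-UCD2.0) under the same symbol, that of SGOL1 under SGO1, and those of 15 were not found there. For symbols with several transcript clusters (CENPW, PTTG1, ANAPC2), the one with the highest mean signal was used.

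Densities were compared in R 4.3.3 by limma 3.58.1 (lmFit, eBayes, no covariates). The Benjamini-Hochberg adjustment covered all transcript clusters. Genes given with their signals in every culture were, in each role, the called ones with the largest changes (up to 4) and the one with the smallest change. Of the related genes, the largest called change in each role is given as a fold change. ZW10, ZWILCH, CENPC1, MKI67, FOXM1 and other related genes named were chosen after their values were seen. Alternatives were the methods' analysis of variance for 2 groups, array weights, variances with trend and robust fit, the replicate number as block, centring on array medians, quantile normalization, removal of low signals, the other transcript cluster, an adjusted p below 0.01 and leaving out each culture. The number of arrays limits the precision. At 3 cultures per density no exact permutation test can give a p below 0.1. The test scripts were tested on simulated data. Matplotlib 3.10.9 (Python 3.11.15) was used for figures.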

Additional observations from a re-analysis of the deposited data

How the results depend on the processing

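Under every alternative run, each member tested kept a negative log2 fold change and none was called higher. The count called lower was between 39, by the methods' analysis of variance, and 49, with all arrays set to one median, and it lay between 46 and 49 when single cultures were left out. Over all 26773 transcript clusters, 941 were called lower in the main fit. This count was 688 by the analysis of variance, 1119 with all arrays set to one median and 783 with the filter on low signals. It lay between 833 and 1274 when single cultures were left out. The filter on low signals kept 54 members, of which 45 were called, and with the transcript cluster of lowest signal PTTG1 was not called. The median log2 fold change was between −1.07 and −0.88 in the same fits. The analysis of variance lost CENPA, CENPH, CENPK, CENPQ, PTTG1, CDCA8, KIF20B and ECT2. The next settings were chosen after seeing the data. With limma's treat, a test against the fold change threshold itself, 15 members were called, of which 6 were kinetochore genes, 3 checkpoint and anaphase genes, 0 mitotic kinases and passengers, 3 motors, 2 spindle-associated proteins, 0 condensin genes and 1 cytokinesis gene, and 11 related genes were called. Over all 26773 transcript clusters, treat called 160 lower and 369 higher. Without a fold change threshold 58 related genes passed, 6 of them higher. Over all 26773 transcript clusters, 2792 passed as lower and 2314 as higher without this threshold. With the replicate number as a block (replicate block) 47 members were called lower, against 954 of all 26773 transcript clusters. The deviations of same-numbered cultures from their group means correlated by 0.05, −0.05 and −0.04 over all transcript clusters. Over the members alone the deviations correlated by −0.09, −0.33 and −0.06. A correlation over the members cannot show a shift that all of them share. Replicate 1 was the lowest of its group for 43 members at normal and 44 at high density. These are 75.4% and 77.2% of the members, against 34.2% and 29.7% of all transcript clusters. The highest culture differed in number, being replicate 3 at normal density for 39 members (68.4%, against 34.9% of all transcript clusters). At high density it was replicate 2, for 35 members (61.4%, against 34.7%). Whether same-numbered cultures shared a cell pool is not known. For 17 members the high density mean was at or below the background level, which may limit the size of the fall.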

Other observations

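Over all transcript clusters 3.51% were called lower and 3.97% higher, and the counts called in the APC/C, augmin, gamma-tubulin ring, septins and abscission machinery were near these shares. Of the 11 core subunits of the APC/C 1 was called, CDC23 with a log2 fold change of −0.71 (SE 0.17, limma's adjusted p = 0.0262), and it was not called by the methods' analysis of variance. ANAPC11, the catalytic RING subunit, had 0.44, ANAPC1, its scaffold, 0.29, and CDC16, a further core subunit, −0.55, all past the adjusted p-value and below the fold change threshold. UBE2C, the ubiquitin-conjugating enzyme that works with the APC/C, was called with −1.08 (SE 0.08, limma's adjusted p = 0.00016), and UBE2S, which extends the chains, was not, with 0.02. In the cohesin ring SMC1A was called with −0.77, while SMC3, RAD21, STAG1 and STAG2 had values between −0.33 and −0.21. Of these, RAD21 passed the adjusted p-value (limma's adjusted p = 0.0218) but not the fold change.

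Of 8 genes of the augmin complex, 4 of the gamma-tubulin ring, 5 septins and 6 genes of the abscission machinery, 0 were called in either direction by limma or by the methods' analysis of variance. At an unadjusted p below 0.05 the augmin genes had 2 lower and 1 higher, the gamma-tubulin ring 0, the septins 1 lower and 2 higher, and the abscission genes 1 lower. Past the adjusted p-value but below the fold change threshold were SEPT6 (0.52), SEPT9 (0.40), SEPT11 (−0.43), HAUS8 of augmin (−0.36) and TSG101 of the abscission machinery (−0.27). Among the regulators that drive mitotic genes, MYBL2 was called with −0.76 (SE 0.09, limma's adjusted p = 0.00098). FOXM1 was not, with signals of 5.30, 5.32 and 5.30 at normal and 5.20, 4.92 and 5.10 at high density and a log2 fold change of −0.23 (SE 0.09, limma's adjusted p = 0.11). LIN54, LIN37 and LIN52, which bind the promoters of these genes as one complex, had −0.22, 0.08 and 0.17.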
